A study of Homo sapiens with 2 samples.

Results

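Spliced transcripts that lie on the strand opposite to an annotated gene were taken from 2 sets of transcripts assembled from RNA sequencing reads of A549 cells, a human lung adenocarcinoma line. A transcript was taken when it had been assembled from the reads and had a strand and at least 2 exons. It also had to share no intron and no exon base with an annotated transcript of its own strand, and to overlap the span of an annotated transcript of the other strand. The control file held 231 such antisense transcripts among 9318 spliced assembled transcripts, which is 2.48%. The knockdown file held 227 among 9366, which is 2.42%. The gene on the other strand is called the sense gene below.

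The control cells carried an shRNA to LacZ, which is a gene of bacteria and not of human cells. The other cells carried an shRNA against PSPC1, an RNA-binding protein of paraspeckles, which are nuclear bodies. Both were cultured with 10% serum and 1% penicillin/streptomycin. There was 1 library of each, so nothing below has a replicate check. The labels do not say whether either was a clone or a pool. PSPC1 itself stood at 31.5 ± 1.25 FPKM in control cells and at 17.7 ± 0.858 after knockdown, a log2 ratio of -0.79. FPKM is a fragment count scaled by transcript length and library size. Pairs of values below give the control first. Values after ± are half-widths of the deposited 95% intervals and cover error within 1 library only. The intervals imply depths of 5.62e+07 and 5.71e+07 fragments. All 8 markers of an epithelial lung adenocarcinoma line, which include the enzymes AKR1B10 and ALDH1A1, were at 1 FPKM or more. They summed to 7880 and 7740 FPKM. The 6 leukocyte markers summed to 2.25 and 1.92, and 6 fibroblast and endothelial markers to 1.07 and 0.824.

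Antisense RNAs are transcribed from the DNA strand opposite to a gene. Many are long non-coding RNAs that are spliced and polyadenylated, and most stay in the nucleus at low levels. They are described by their position: head to head where both genes start near each other and run apart, tail to tail where the 3' ends overlap, and inside where the antisense RNA lies within the gene. The nuclear exosome, an RNA-degrading complex, removes many of the unstable ones.

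In the control file 68 members (29.4%) and in the knockdown file 60 (26.4%) had an intron that GENCODE 29 also lists on the same strand. The match was by intron length and by distance to an intron of a nearby annotated transcript on the other strand. For 45 and 37 of these members GENCODE calls the gene with that intron an antisense gene. The sequences below are exon junctions from GENCODE 29 transcripts (GRCh38), 5' to 3', with 30 bases on each side of the joined exons. The capitals are the last 5 bases of the first exon and the first 5 of the next. They are shown because the results below turn on these RNAs, which the 2 files assembled with the same introns. The junctions opposite DMTF1 and TXNRD1 were chosen after their values were seen.
AC006329.1, opposite IFT22: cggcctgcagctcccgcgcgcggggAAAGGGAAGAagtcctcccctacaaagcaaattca
AC012146.1, opposite ZNF232, first junction: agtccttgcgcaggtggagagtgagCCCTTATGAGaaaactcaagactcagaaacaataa
AC012146.1, opposite ZNF232, next junction: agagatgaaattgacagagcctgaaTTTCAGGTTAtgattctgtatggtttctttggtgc
AC105446.1, opposite MUC12, first junction: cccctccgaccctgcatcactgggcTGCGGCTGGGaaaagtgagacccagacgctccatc
AC105446.1, opposite MUC12, next junction: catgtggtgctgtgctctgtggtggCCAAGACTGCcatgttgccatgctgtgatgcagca
PIK3CD-AS2, opposite PIK3CD: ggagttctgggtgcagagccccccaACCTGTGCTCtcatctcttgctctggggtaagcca
AC005076.1, opposite DMTF1: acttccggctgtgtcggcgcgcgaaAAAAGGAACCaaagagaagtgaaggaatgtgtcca
AC089983.1, opposite TXNRD1: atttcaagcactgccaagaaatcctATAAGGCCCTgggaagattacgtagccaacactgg

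The sources used here do not name the genome build of the deposited files. In their coordinates the intron opposite IFT22 lies at chr7:100951830-100953764 on the plus strand and the first intron opposite MUC12 at chr7:100658549-100660695 on the minus strand. The intron opposite PIK3CD lies at chr1:9741194-9747392, that opposite DMTF1 at chr7:86780975-86781617 and that opposite TXNRD1 at chr12:104656354-104674061, all 3 on the minus strand. The introns opposite ZNF232 lie at chr17:5015414-5016680 and chr17:5016748-5017452 on the plus strand. Over the 109 distinct junctions that GENCODE shared with the members, outside chromosome 8 and coding genes, 89 (81.7%) had G as the last exon base before the intron, the base most often found at that place in human exons. These bases were read from GENCODE's own transcripts, so the share says nothing about members without a GENCODE intron.

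The members were short chains of exons at low levels. Of the control members 175 had 2 exons, 40 had 3 and 16 had 4 or more, and of the knockdown members 159, 50 and 18. The median was 2 exons in both files, against 8 among the other spliced assembled transcripts. Median FPKM was 0.578 and 0.585, with the middle 50% of members between 0.367 and 1.07 and between 0.343 and 1.06. The other spliced assembled transcripts had medians of 0.992 and 0.98. Only 60 and 61 members reached 1 FPKM, 14 and 8 reached 10, and 6 and 4 reached 100. A median member rested on 76.7 and 63.6 estimated fragments, so most single values have wide intervals.

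**Figure D1:**
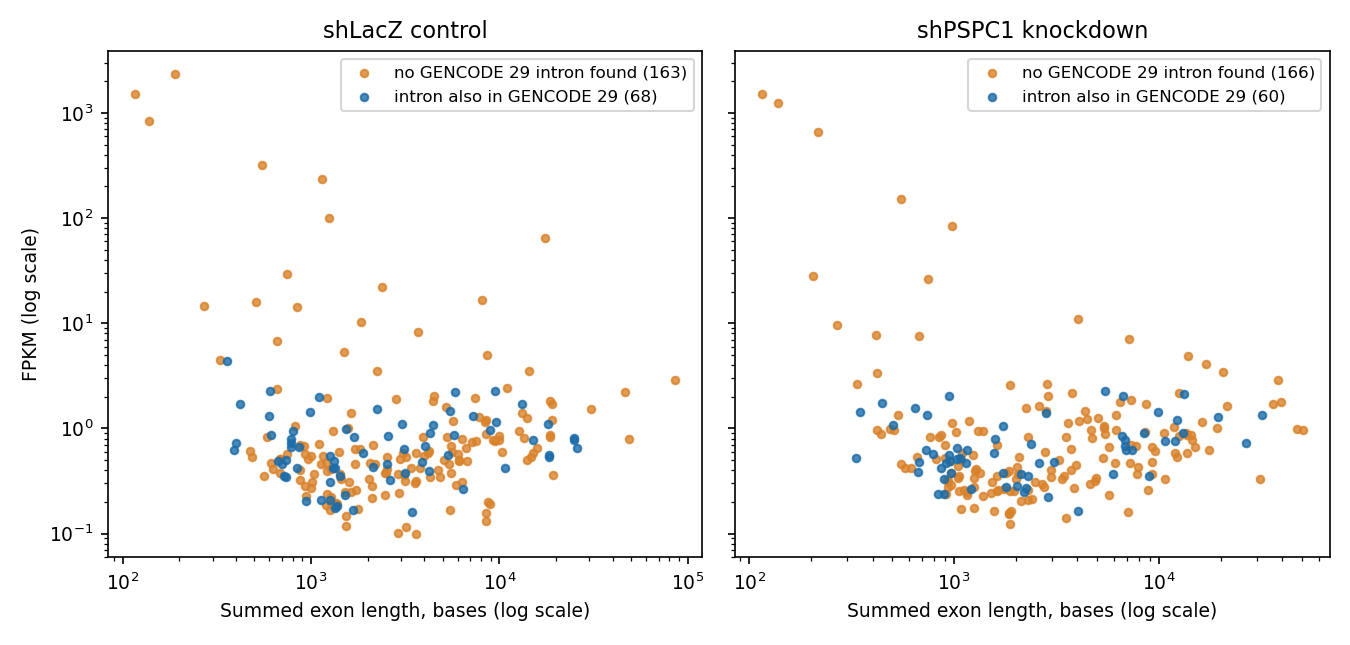
FPKM against summed exon length, both on log scales, for each member of the control (left) and knockdown (right) file, with members that share an intron with GENCODE 29 in blue. The members above 100 FPKM include the shortest ones, and no member at 10 FPKM or more shares an intron with GENCODE. One knockdown member at 0 FPKM is not drawn.

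By position, 95 members of each file lay inside the sense gene. Another 64 control and 51 knockdown members were tail to tail, 40 and 43 head to head, and 32 and 38 reached beyond the sense gene at both ends. Exon bases of 144 control and 139 knockdown members lay over exons of the sense strand, and for 87 and 88 members none did. An intron of 13 control and 10 knockdown members had both ends within 10 bases of an intron of the sense strand, and no intron was identical to one. Members often carried very long exons: 60 control members (26%) and 62 knockdown members (27.3%) had an exon of 5000 bases or more. Among the other spliced assembled transcripts this held for 10.6% in both files, and among spliced transcripts at no annotated gene for 6.2% and 4.93%. Of the long-exon members 50 and 53 lay opposite a gene at 1 FPKM or more in the same library. Among all members this held for 126 of 231 in the control and 118 of 227 in the knockdown file. All 60 and 62 long-exon members together held 131887 of the 182181 control member fragments and 63274 of the 90010 knockdown fragments. The 5 highest members of each file held 57.2% and 24.5% of its member fragments. In the control 62920 fragments were in the member at MIR3648-1, where a knockdown transcript without a strand held 39682. Nothing in the sources used here says that the libraries kept the strand. Assembled transcripts without a strand numbered 29208 and 36255, and those of 1 exon with a strand 1375 and 1527. Away from spliced reads a fragment in such a long exon thus cannot be told apart from one of the sense gene's unspliced RNA. The same limit holds for any member over exons of the sense gene, whose spliced RNA covers those bases too.

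The single highest member, in the control file only, was opposite RPS16, a protein of the small ribosomal subunit, at chr19:39923869-39924162 on the plus strand. It had 2355 ± 76.0 FPKM over 189 bases, of which 1 exon was 1 base long. Every base of it lay over RPS16 exons. Members with an exon of 10 bases or fewer numbered 6 and 8. FPKM divides by length, so a high FPKM over few bases need not stand for many fragments, although the member opposite RPS16 held 4832. Other control members above 100 FPKM were longer, such as those inside TAOK3 with 552 bases and at MIR1244-2 with 1148.

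The same chain of introns was found in both files for 50 antisense transcripts, at 50 loci. That is 21.6% of the control and 22.0% of the knockdown members, against 20.7% and 20.6% of the other spliced assembled transcripts. These 50 matched chains are the only members with a value from each library for the same spliced structure. Their median log2 ratio, knockdown over control with 1 FPKM added to each, was 0.0014. Ratios above 0 were found for 26 and below 0 for 24, 40 lay within 0.5 of 0, and the range was -1.19 to 1.37. The other 1883 matched chains had a median of -0.02. Deposited intervals of the 2 libraries did not overlap for 16 of the 50, 10 higher and 6 lower in the knockdown library, against 49.2% of all 1933 matched chains, 23% higher and 26.2% lower.

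With 1 library a group there is no test, so a rule of size was used. It asks for 1 FPKM or more in the higher library, a log2 ratio of 1 or more up or down, and no overlap of the intervals. Rose and fell are kept for what passed it. Of the 50 matched chains 21 reached 1 FPKM in either library and so could pass. Of these 1 rose and 1 fell. Over all 1933 matched chains of spliced assembled transcripts, at any level, 4.91% passed, 2.85% up and 2.07% down. Neither of these 2 chains passed when fragments were compared at 1 common length.

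**Figure D2:**
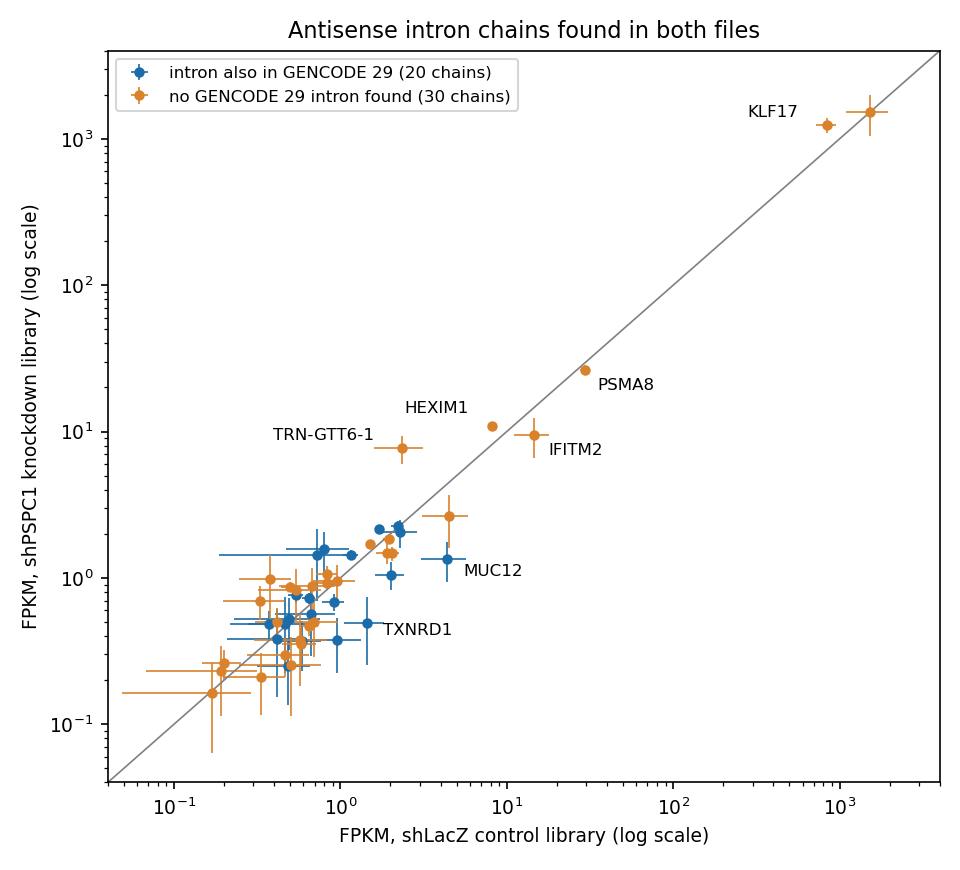
FPKM in the control (x axis) and knockdown library (y axis), both on log scales, of the 50 antisense intron chains found in both files, with bars for the deposited 95% intervals and a line of equal values. Most chains lie near the line, and those at TRN-GTT6-1 and MUC12 are the 2 past the rule of size.

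Among the matched chains at the highest levels, the chain inside KLF17, which encodes a zinc-finger transcription factor, had 835 ± 113 and 1241 ± 147 FPKM, from 257 and 324 estimated fragments over 138 and 139 bases. Its intervals did not overlap and its log2 ratio was 0.57, short of the rule of size. This high FPKM thus rests on a length little above 100 bases.

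The chain inside PSMA8, a proteasome subunit known from the testis, had 29.6 ± 2.16 and 26.5 ± 2.01 FPKM and 974 and 885 estimated fragments. PSMA8 itself was listed at 0 in both libraries, and the intervals of the chain overlapped. The chain across IFITM2 and IFITM1, near-identical interferon-induced membrane proteins, had 14.5 ± 3.52 and 9.53 ± 2.91 FPKM, with overlapping intervals. It lay for 97.8% of its control exon bases over sense exons, and reads of such near copies could be split between them.

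HEXIM1 encodes an inhibitor of P-TEFb, the kinase that releases paused RNA polymerase II, and its paralog HEXIM2 lies beside it. The matched chain on the minus strand overlaps both genes, at chr17:43225853-43240223, with an intron of 10337 bases. It had 8.19 ± 0.483 and 10.99 ± 0.532 FPKM, a log2 ratio of 0.38, and 1627 and 2429 estimated fragments. The intervals did not overlap. HEXIM1 had 6.68 ± 0.378 and 9.34 ± 0.448 FPKM, a log2 ratio of 0.43. Antisense chain and gene were thus at like levels and neither passed the rule of size, and 66.7% of the knockdown chain's exon bases lay over sense exons.

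The chain that joins 4 tRNA genes on chromosome 6, among them TRF-GAA3-1, had 4.47 ± 1.4 and 2.65 ± 1.04 FPKM. The chain opposite the tRNA gene TRN-GTT6-1 rose, from 2.36 ± 0.768 to 7.66 ± 1.67 FPKM, a log2 ratio of 1.37. By estimated fragments at 1 common length its log2 ratio was 0.55, since the chain had 658 bases in one file and 417 in the other. A chain of the same locus that was found in the control file only had 6.84 ± 1.11 FPKM, and 1 found in the knockdown file only had 3.35 ± 1.33. Summed over all its chains the TRN-GTT6-1 locus went the other way, with 258 and 160 estimated fragments, 60.9% of the control at equal depth. The tRNA genes were listed at 0 in both libraries.

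The antisense RNA of IFT22, a small GTPase of intraflagellar transport, is the GENCODE gene AC006329.1, whose junction is printed first above. It had 2.21 ± 0.179 and 2.27 ± 0.187 FPKM, from 702 and 689 estimated fragments. IFT22 had 8.33 ± 0.536 and 9.17 ± 0.559 FPKM, so the chain tail to tail with it was listed at 26.5% of the gene's control level. In this chain 1 exon held 5421 of 5826 bases in the control and 5197 of 5477 in the knockdown file. Of its exon bases 32.9% and 35% lay over sense exons. Its level may thus include fragments of IFT22's own RNA, which was not tested. The antisense RNA of the zinc-finger gene ZNF232, AC012146.1, had 2.28 ± 0.613 and 2.04 ± 0.433 FPKM. The chain opposite RPL39, a ribosomal protein gene, had 1.95 ± 0.14 and 1.85 ± 0.137 FPKM, with RPL39 at 64.3 and 58.4. It too was mostly 1 long exon, of 7240 bases out of 7453 and 7304. For these 3 chains the intervals of both libraries overlapped.

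MUC12 encodes a membrane mucin, and the 3-exon RNA AC105446.1 lies inside it on the other strand. It fell from 4.36 ± 1.3 to 1.35 ± 0.416 FPKM, a log2 ratio of -1.19. The estimated fragments were 48.0 and 44.4, with 357 and 741 bases assembled, and at 1 common length the log2 ratio was -0.08. MUC12 had 1.7 ± 0.584 and 0.845 ± 0.329 FPKM, with overlapping intervals.

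A total of 20 matched chains shared an intron with GENCODE 29, 16 of them with an antisense gene. Of the GENCODE-matched members 29.4% and 33.3% had the same chain in the other file, against 18.4% and 18% of the members without a GENCODE intron. No member at 10 FPKM or more shared a GENCODE intron in either file. The following chains were named after their values were seen. AC005076.1 starts head to head with DMTF1, a transcription factor, and its chain had 1.71 ± 0.0966 and 2.15 ± 0.108 FPKM from 1255 and 1601 estimated fragments. In this chain 1 exon held 12765 of 13211 bases in the control and 13182 of 13202 in the knockdown file. Fragments in that exon cannot be told apart from unspliced RNA of DMTF1. DMTF1 had 7.2 ± 0.463 and 5.86 ± 0.355. The intervals overlapped for neither of them, and neither passed the rule of size.

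AC089983.1 lies inside TXNRD1, the cytosolic thioredoxin reductase. It had 1.44 ± 0.381 and 0.495 ± 0.241 FPKM, a log2 ratio of -0.71 and -0.72 by estimated fragments, which were 67.1 and 22.5. The intervals did not overlap. TXNRD1 had 447 ± 4.57 and 382 ± 4.29 FPKM, so the antisense RNA stood at 0.322% of its gene in the control. The antisense RNA AC083855.2 inside HRH1, the histamine H1 receptor gene, had 2.01 ± 0.388 and 1.05 ± 0.228 FPKM with 107 and 94.1 estimated fragments, and -0.11 was its log2 ratio by fragments. SMIM2-AS1, with 4 exons, had 0.796 ± 0.325 and 1.57 ± 0.478 FPKM, with overlapping intervals. None of these 3 passed the rule of size, in which 1 FPKM is added to each value. The knockdown FPKM of AC089983.1 was 0.344 of its control FPKM, and with 0.1 FPKM added instead it passed.

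Members whose exons overlap on 1 strand were joined into 344 loci, of which 82 had members in both files, 132 in the control only and 130 in the knockdown only. Of the 82 shared loci 1 rose and 3 fell, against 8.79% past the rule, 4.76% up and 4.03% down, among all loci of spliced assembled transcripts in both files. The locus inside TAOK3, a protein kinase gene, rose from 319 ± 8.74 to 656 ± 33.1 FPKM, with 7003 estimated fragments over 552 bases in the control and 2081 over 216 bases in the knockdown library. The fragments thus went the other way. The locus at MIR3648-1 on chromosome 21 fell from 64.4 ± 0.513 FPKM to a member listed at 0. The locus at MIR1244-2 on chromosome 5 fell from 235 ± 4.11 to 83.9 ± 3.15 FPKM. Over the member exons all transcripts together kept 67.6% of the control fragments at MIR3648-1 and 51.6% at MIR1244-2, at equal depth. The MUC12 locus, described above, was the third. MicroRNA genes of these 2 names have near-identical copies, and reads could be split between them.

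For members found in 1 file only, a comparison of FPKM sets a value against no value, so the other file was searched for any transcript over the same exons. Of 181 control members without the same chain in the knockdown file, 46 had another member at the locus and 74 were covered for at least 0.5 of their exon bases by other transcripts. For 38 of these 74 the cover was mostly by the sense strand and for 33 mostly by transcripts without a strand. Another 32 were covered in part, 3 had the intron in a transcript that was no member, and 26 had nothing. For the 177 knockdown members, 42 had another member, 58 were covered (22 mostly by the sense strand, 31 without a strand), 38 in part, 5 had the intron, and 34 had nothing.

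All fragments over the member exons were then summed for each locus, whatever the strand of the transcript they were given to, by sharing out a transcript's fragments evenly over its bases. With 1 fragment added to each and depth made equal, 76 of the 82 shared loci had a log2 ratio within 1 of 0. So did 84 of the 132 control-only loci (63.6%) and 62 of the 130 knockdown-only loci (47.7%). At loci of spliced transcripts at no annotated gene the shares were 47.9% and 41.3%. With 200 fragments or more in either library, 55 of 59 control-only and 36 of 53 knockdown-only loci lay within 1 of 0. The other library had no fragment at all at 25 control-only and 34 knockdown-only loci, whose own medians were 24.4 and 24.5 fragments. That a locus was assembled in 1 library favours more fragments there, so the direction of these ratios is no result.

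**Figure D3:**
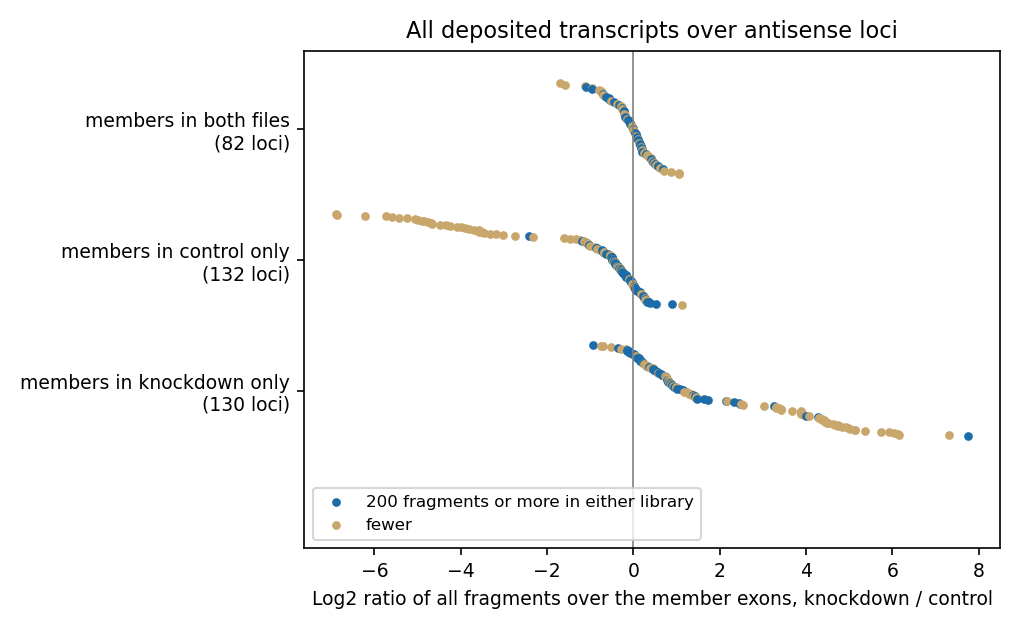
Log2 ratio, knockdown over control, of all fragments over the member exons (x axis) for each of the 344 antisense loci, in 3 rows by the file that holds members, with loci of 200 fragments or more in blue. Of the 82 loci with members in both files 76 lie within 1 of 0, and the wide tails of the other rows are mostly loci with fewer than 200 fragments.

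The 4 control-only loci with the highest FPKM were opposite RPS16, CHCHD3, H3C2 and TSPAN14. At RPS16 the member held 4832 estimated fragments and sense transcripts 4167 in the control, while in the knockdown library sense transcripts held 7215 and no antisense transcript was listed. RPS16 itself had 540 ± 9.92 and 928 ± 12.4 FPKM, a log2 ratio of 0.78. Summed with the member fragments over its exons the ratio was 0.33. All transcripts together held 8998 and 7215 fragments over the member exons.

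CHCHD3 encodes a mitochondrial protein of the MICOS complex, which shapes the inner membrane. Its control member had 101 ± 3.48 FPKM and 6162 estimated fragments on the plus strand, inside the gene at chr7:132719287-132720681. CHCHD3 rose from 55.8 ± 1.66 to 508 ± 4.94 FPKM by the sum of its transcripts. Its annotated transcript alone had 55.8 and 56.8 ± 1.67. In the control file an assembled minus-strand transcript of 15700 fragments over much the same bases was not counted to the gene. In the knockdown file a minus-strand transcript of 3 exons and 37628 fragments ran from there to the 5' end of CHCHD3 and was counted to it. Over the member exons all transcripts together held 20786 and 24753 fragments.

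The member around H3C2, a histone H3 gene, had 22.1 ± 0.896 FPKM and 2764 fragments in the control, beside 10783 on the sense strand. In the knockdown library the sense strand held 10292. The member inside TSPAN14, a tetraspanin gene, had 16.7 ± 0.388 FPKM and 7424 fragments. In the knockdown library transcripts without a strand held 5526 fragments there, so 73.4% of the control total remained at equal depth while the antisense label did not.

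The 4 knockdown-only loci with the highest FPKM were opposite EIF5AL1, RGPD1, AKR1C3 and FAM25C. EIF5AL1 is a near-identical copy of EIF5A, a translation factor, so its reads are uncertain. Its antisense member, wholly over the sense exon, had 150 ± 5.32 FPKM and 3303 fragments in the knockdown library. EIF5AL1 fell from 22.8 ± 0.664 to 4.87 ± 0.32 FPKM, a log2 ratio of -2.02, with 4706 and 1023 fragments. With the member's fragments added the log2 ratio was -0.14. Over the member's own exons, with the gene's fragments shared out evenly along its 3840 bases, the totals were 673 and 3450. The member opposite FAM25C had 7.08 ± 0.267 FPKM and 2816 fragments, and the control file held 2752 fragments there in a transcript without a strand.

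Nothing was listed in the control file over the exons of the other 2. The member inside RGPD1, a gene with several near-identical copies, had 27.9 ± 6.53 FPKM from 71.8 fragments over 204 bases, with an exon of 8 bases. The member at AKR1C3 and AKR1C1 had 4 exons and 7.51 ± 1.02 FPKM from 219 fragments, the most at any locus where the other library had none. It spans chr10:5016558-5147609 on the minus strand, with an intron of 129752 bases, at aldo-keto reductase genes that resemble each other in sequence. None of its exon bases lay over sense exons, while AKR1C3 itself stood at 984 and 1328 FPKM.

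**Figure D4:**
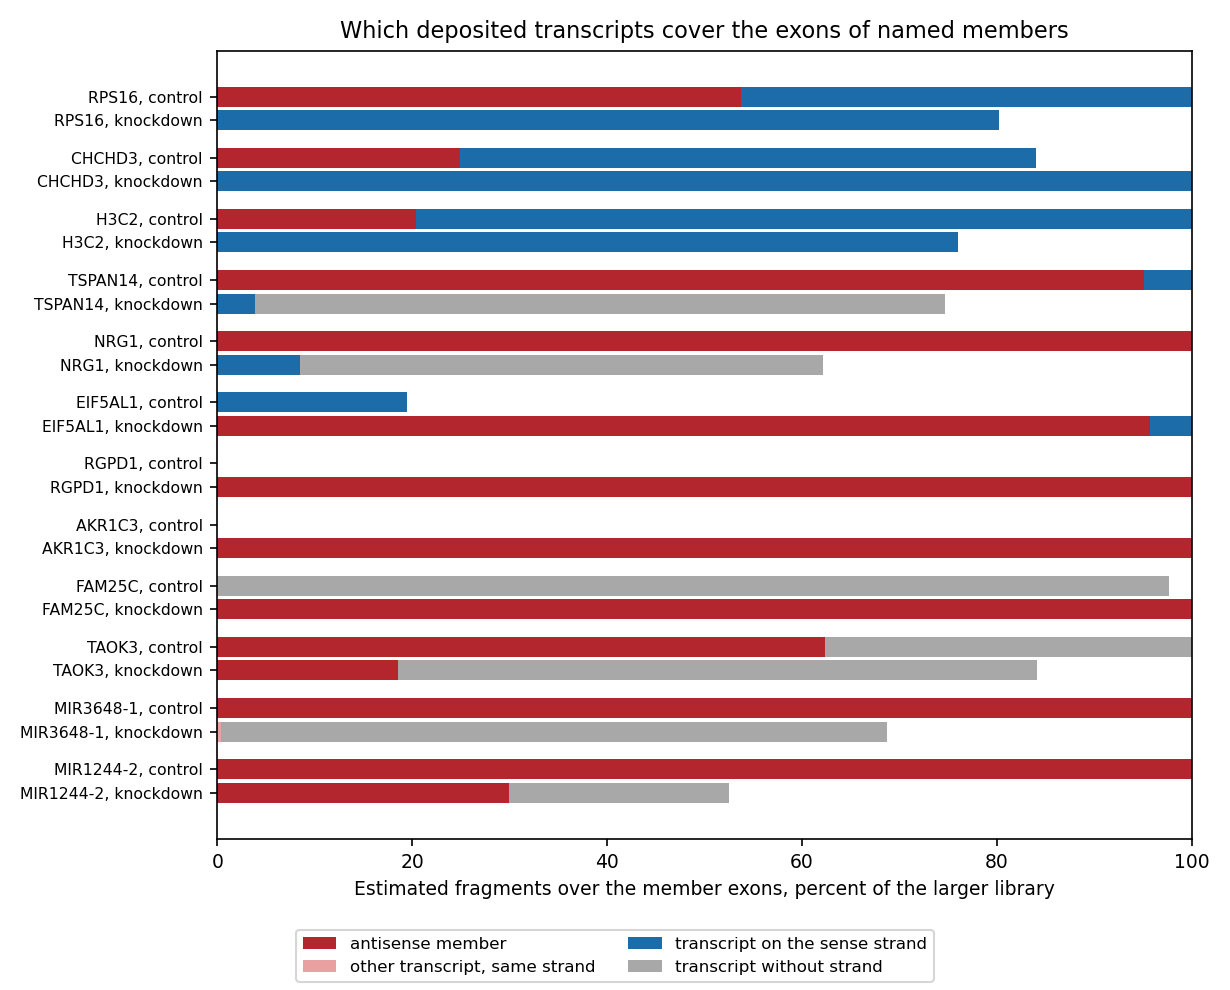
Estimated fragments over the member exons at 12 named loci, as a percent of the library with more and not scaled for depth (x axis), for each file, coloured by the kind of transcript they were given to. At RPS16, CHCHD3, H3C2, TSPAN14 and FAM25C fragments are present in both files but belong to an antisense member in only 1, and at RGPD1 and AKR1C3 the control bar is empty.

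The members lay opposite 340 sense genes, of which 284 code for protein and 202 were at 1 FPKM or more in either library. Of these 202, 5 rose and 8 fell, which is 6.44% against 3.88% (1.84% up, 2.04% down) of the 11914 genes at that level. The median log2 ratio of the 202 was -0.03, with 91 above and 111 below 0, and that of all 11914 was 0.01. Sense genes with a member in the control file only counted 84, with 2 risen, 0 fallen and a median of 0.06. Those with a member in the knockdown file only counted 75, with 0 risen, 5 fallen and a median of -0.09. The 30 with a matched chain had 2 risen, 1 fallen and a median of -0.14. A fragment given to a member over sense exons is not given to the gene in the same file, so these splits are not independent of where the members were assembled. Fewer cells expressing a gene and less RNA per cell cannot be told apart in such libraries.

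**Figure D5:**
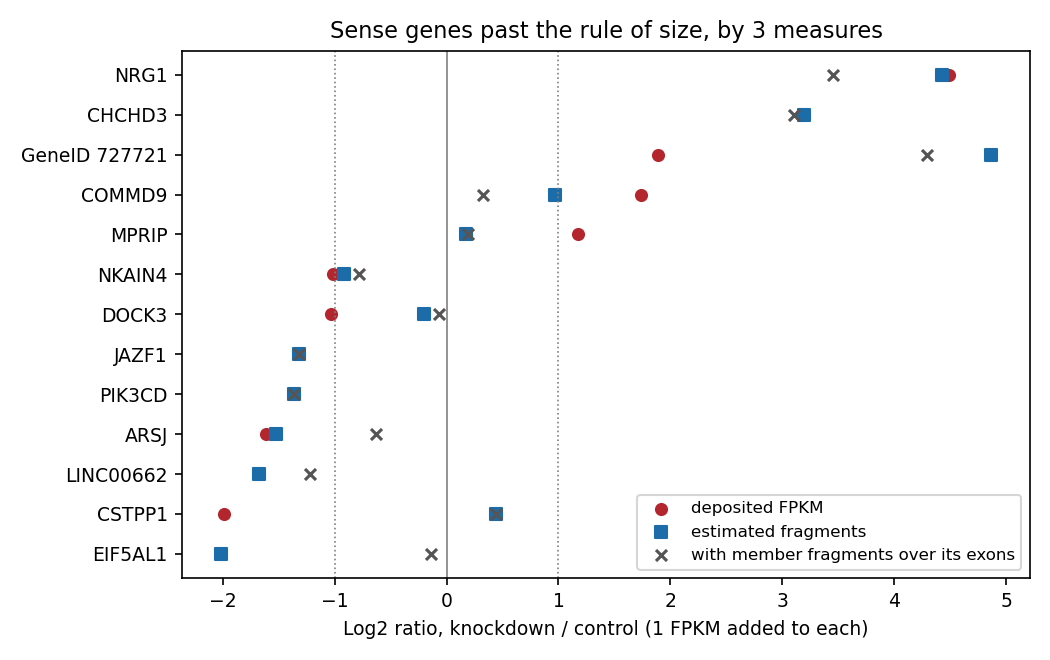
Log2 ratio, knockdown over control with 1 FPKM added (x axis), of the 13 sense genes past the rule of size, from deposited FPKM (circles), from estimated fragments at 1 length (squares) and with the member fragments over the gene's exons added (crosses). For EIF5AL1 the cross lies near 0, for CSTPP1 the square and the cross lie above 0, and dotted lines mark -1 and 1. Squares hide circles of like value.

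Of the sense genes past the rule, 3 had a matched chain. MPRIP, which binds myosin phosphatase, rose from 9.48 ± 0.256 to 22.6 ± 0.663 FPKM, while its estimated fragments were 5786 and 6728, a log2 ratio of 0.18. Its annotated transcripts alone went the other way, with a log2 ratio of -0.89. The antisense chain at its 3' end had 1.52 ± 0.0629 and 1.69 ± 0.0621 FPKM, with an exon of more than 5000 bases in both files. PIK3CD is the catalytic delta subunit of a class I PI3-kinase. It fell from 1.57 ± 0.146 FPKM to a value listed at 0, which may be a failed estimate. Its antisense RNA PIK3CD-AS2, whose junction is printed above, had 0.49 ± 0.262 and 0.524 ± 0.202 FPKM, from 14 and 27 fragments.

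NRG1, neuregulin 1, is a ligand of the ERBB receptor kinases. It rose from a value listed at 0 in the control to 21.5 ± 0.722 FPKM in the knockdown library. In the control file a 2-exon member on the other strand ran for 85883 exon bases through the gene, at 2.89 ± 0.049 FPKM and 13925 fragments, with an intron of 160 bases. Only 1184 sense fragments and 7476 without a strand lay over the same bases in the knockdown library. Over the whole span of NRG1, all transcripts held 38549 and 20979 fragments, 53.6% of the control at equal depth. These totals mix strands and unspliced pieces, so they do not show how much spliced NRG1 RNA the control held. The value of 0 in the control is a listing in that file and may be a failed estimate, which was not tested. A shorter chain on the antisense strand, with 3 exons, was matched in both files at 0.508 ± 0.262 and 0.255 ± 0.141 FPKM, from 15 and 13 fragments.

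Among the other sense genes past the rule, COMMD9, of the COMMD family, rose from 5.26 ± 0.424 to 19.9 ± 1.18 FPKM, a log2 ratio of 1.74. Its log2 ratio was 0.97 by estimated fragments and 0.33 with its control member's fragments added. ARSJ, an arylsulfatase gene, fell from 3.67 ± 0.314 to 0.528 ± 0.116 FPKM, and its ratio with the member fragments added was -0.63. CSTPP1 fell from 6.9 ± 0.563 to 0.993 ± 0.0696 FPKM, and by estimated fragments its ratio was 0.44. The long non-coding RNA gene LINC00662 and the zinc-finger gene JAZF1 fell to values listed at 0, which may be failed estimates. Over the span of LINC00662 all transcripts held 234 and 238 fragments, and over the exons of its antisense member 935 and 1494, of which 40.2 and 732 were on the sense strand. Over the span of JAZF1 they held 450 and 391. These genes were named after their values were seen, and of the 13 past it 5 were listed at 0 in 1 library.

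Genes of nuclear RNA surveillance, the exosome subunits, its adaptor complexes, XRN2 and the cap-binding proteins, act on antisense RNAs as a class. None of the 27 measured rose or fell, where 3.88% of all genes at 1 FPKM or more did, so the count is near that share. Of the 27, 16 had a log2 ratio above 0 and 11 below, and the median was 0.02. Their FPKM summed to 539 and 545. MTREX, the exosome's RNA helicase, had 31.7 ± 0.748 and 35.5 ± 0.785 FPKM.

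The annotation in the files also names antisense genes of its own, by a symbol that ends in -AS and a number. Of 653 such genes 373 were listed at 0 in both libraries and 58 reached 1 FPKM in either. Among these 58, 8 rose and 3 fell, with a median log2 ratio of 0.08. Over all genes at that level 1.84% rose and 2.04% fell. All 8 that rose were listed at 0 in the control, which may be failed estimates, so no fold can be given. Among them ZBED5-AS1 had 6.19 ± 0.677 and RBM15-AS1 4.37 ± 0.265 FPKM in the knockdown library. Fragment totals over the spans of these 8 are not given here, so more RNA from them is not shown. Of the 3 that fell, PRKG1-AS1 went from 3.13 ± 0.197 to 0.232 ± 0.0903 FPKM. None of these 11 genes is the sense gene of a member.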

How the data were processed

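RNA of A549 cells with an shRNA against LacZ or PSPC1 was sequenced, 1 library each. Cufflinks 2.1.1, TopHat2 2.0.7 and CASAVA 1.8.2 are listed in the submitters' processing notes. Per the files' attributes, the authors deposited FPKM and the bounds of a 95% interval for each transcript. Strandedness, selection of RNA and the genome build are not given in the sources used here. Scaffolds are named as in GRCh37, and coordinates are the files' own. The members and gene lists were chosen with earlier results of these data known.

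A gene's FPKM is the sum over its annotated transcripts and the assembled ones assigned to it. Depth and mean fragment length (162 and 166 bases) were estimated from single-exon transcripts without strand of at least 1000 bases and 5 to 200 fragments, whose interval half-width is 2 FPKM over the root of the fragments. For 91.3% and 90.7% of them the fragments were whole within 0.02. Estimated fragments are FPKM times effective length and depth, and the calculation was tested on simulated data. The lengths assume even coverage along a transcript. A log2 ratio sets the knockdown over the control value after adding a pseudocount of 1 FPKM, and so understates change at low FPKM. No test could be run on 1 library per group.

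Named are, by rule, the 10 matched chains with the highest lower value, those past the rule of size, the 4 highest loci per library without a member in the other, their sense genes, sense genes past the rule with a matched chain, and PSPC1. One of these chains is not reported here. Any other was named after its values were seen. Gene names came from RefSeq (GRCh38.p14) and junction sequences from GENCODE 29 (GRCh38), and no coordinate was converted. Members were matched to GENCODE by an intron of the same length. Its shift in position had to equal that of an intron of a nearby annotated transcript on the other strand. Python 3.11.15, numpy 2.4.6 and matplotlib 3.10.9 were used.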

Additional observations from a re-analysis of the deposited data

How the results depend on the processing

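No paired analysis was possible because each group holds 1 library. The count of 2 antisense chains past the rule of size became 3 with a pseudocount of 0.1 FPKM and 1 with a minimum of 5 FPKM. It became 0 by estimated fragments at 1 common length and 1 among chains with 3 or more exons. The 13 sense genes past the rule became 20 with annotated transcripts alone, 21 with a pseudocount of 0.1 FPKM and 6 with a minimum of 5 FPKM. Leaving out genes listed at 0 in 1 library, chosen after seeing the data, left 8. Members per library fell with stricter definitions: 144 and 139 with exon overlap, 56 and 68 with 3 or more exons, and 60 and 61 at 1 FPKM or more. Median log2 ratios of the 50 matched chains lay between -0.14 (3 or more exons) and 0.03 (exon overlap). No alternative moved them or the median of the sense genes outside the 95% order-statistic interval of the main median. That interval was -0.15 to 0.08 for the chains. It covers the spread among chains or genes only and holds no error between libraries. The alternatives rescale or subset the same chains and genes, so staying inside it is no check of replication. Among single genes, the sign turned for CSTPP1 by estimated fragments (0.44, also with member fragments added), and for DOCK3 (0.15) and MPRIP (-0.89) with annotated transcripts alone. Summing all transcripts over member exons and adding member fragments to sense genes were also chosen after seeing the data. Most members rest on fewer than 100 fragments, where an interval reaches 20% or more to each side.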
